A study of Mus musculus with 9 samples.

Results

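Ephrins, Slits and netrins are guidance cues, and this account follows their genes and those of their receptors in cortical interneurons of the mouse at postnatal day 5. The genes were taken by symbol: ephrins (Efna, Efnb) and Eph receptors (Epha, Ephb), Slit1 to Slit3 with Robo1 to Robo4, the netrins Ntn1, Ntn3, Ntn4 and Ntn5, and the netrin receptors Unc5a to Unc5d, Dcc and Neo1. Of the 23319 genes in the count tables, 39 matched. Expression was counted in 9 libraries, each of 150 green fluorescent cells picked by hand from superficial strips of medial prefrontal and anterior cingulate cortex, with 3 libraries from each of 3 Cre lines, all crossed to the fluorescent reporter Ai47. The Nkx2.1 group was Nkx2.1-CreER;Ai47, with tamoxifen at E17, a scheme used to label late-born interneurons of the medial ganglionic eminence, chandelier cells among them. The SOM group was SOM-Cre;Ai47 and the VIP group VIP-Cre;Ai47, with no treatment labelled for either, so that the line and tamoxifen cannot be told apart in comparisons with the Nkx2.1 libraries. Constitutive Cre marks every cell with a history of the driver gene, CreER those that expressed it around the time of tamoxifen, and no label says whether libraries of a line came from separate animals. P-values therefore rest on the variation among these libraries, part of which may be technical.

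Ephrins are ligands held on the cell surface, ephrin-A by a lipid anchor and ephrin-B by a transmembrane segment. Eph receptors are receptor tyrosine kinases that mostly bind ephrins of their own class, and contact can signal into both cells, often as repulsion. Slits are secreted and repel axons and migrating neurons that carry Robo receptors, while netrins attract through DCC and repel through UNC5 receptors. In the cortex these systems are known for sorting migrating interneurons, for axon targeting and for choosing synaptic partners.

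Each library held between 6484488 and 12465997 reads in genes. Levels are given as CPM, reads scaled to library size with the trimmed mean of M-values (TMM), on which a floor of 3 reads in a library is 0.248 to 0.447. SOM and VIP libraries matched their labels at the genes behind the line names: Sst stood at 1456 to 2180 CPM for SOM and at most 36.4 CPM elsewhere, and Vip at 413 to 805 CPM for VIP and at most 3.55 CPM elsewhere. Nkx2-1 had too few reads to check the Nkx2.1 label in each library: 23 in the Nkx2.1 libraries together (0.0835 to 1.37 CPM) and 1 outside them (0.115 CPM in a SOM library). Summed GABAergic neuron markers stood at 3133 to 6975 CPM, all 6 that the tables list having reads. Of these, only Slc32a1 was lower in every Nkx2.1 library than in any other. It stood at 0.915, 4.35 and 8.43 CPM for Nkx2.1, 15.3 to 75.2 for SOM and 54.4 to 78.1 for VIP. Summed astrocyte and radial glia markers, all 8 with reads, reached 3590 CPM in Nkx2.1 replicate 1, against 255 and 668 in the other Nkx2.1 libraries, 64.4 to 212 for SOM and 264 to 415 for VIP. Most of each VIP sum was Slc1a2 (375, 216 and 231 CPM). It was the only member higher in every VIP library than in Nkx2.1 replicate 1 (118 CPM). Excitatory neuron markers, all 7 with reads, summed to at most 157 CPM, microglial markers to at most 18.0 and erythrocyte markers to at most 7.35. Oligodendrocyte lineage markers, all 8 with reads, summed to 261 to 304 CPM for Nkx2.1, 101 to 266 for SOM and 1.73 to 112 for VIP. By this sum Nkx2.1 libraries lay above all VIP libraries, but single members did not all share that order. Pdgfra made up nearly all of the sum in Nkx2.1 replicate 2 (260 CPM). Mbp was highest in SOM replicate 3 (163 CPM) and Mog in SOM replicate 2 (70.5 CPM). Endothelial and mural markers summed to at most 17.7 CPM, with Cldn5, Kdr, Cdh5, Pdgfrb and Kcnj8 at 0 in all 9 libraries and reads for the other 4 of 9, Rgs5 the highest at 17.3 CPM in SOM replicate 2. Across genes, which are not independent replicates, log2 CPM correlated at 0.461 to 0.666 between libraries of a line.

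At least 1 read was found for 31 of the 39 guidance genes, and 25 had enough reads to be tested. No guidance gene passed the threshold of 0.05 on the adjusted p of edgeR's quasi-likelihood test in any comparison of lines. The background was low as well: 0.0932% of the 10728 genes tested were called in Nkx2.1 against SOM, 0.308% in Nkx2.1 against VIP and 0.0746% in SOM against VIP. The lowest adjusted p among the guidance genes was 0.13, for the EphA receptor gene Epha5 in Nkx2.1 against VIP. At an unadjusted edgeR p under 0.05 there were 5 of 25 in Nkx2.1 against SOM (11.3% of all genes), 6 in Nkx2.1 against VIP (15.2%) and 4 in SOM against VIP (6.99%). The DESeq2 Wald test, with Benjamini-Hochberg adjustment, called 2 of them in Nkx2.1 against SOM (7.73% of the genes it gave a value), 5 in Nkx2.1 against VIP (12.7%) and 1 in SOM against VIP (3.84%). A difference below is therefore given by its values and by whether the libraries of the lines overlap, and none passed the edgeR threshold. In these bulk libraries, fewer cells carrying a transcript and less transcript per cell cannot be told apart.

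**Figure D1:**
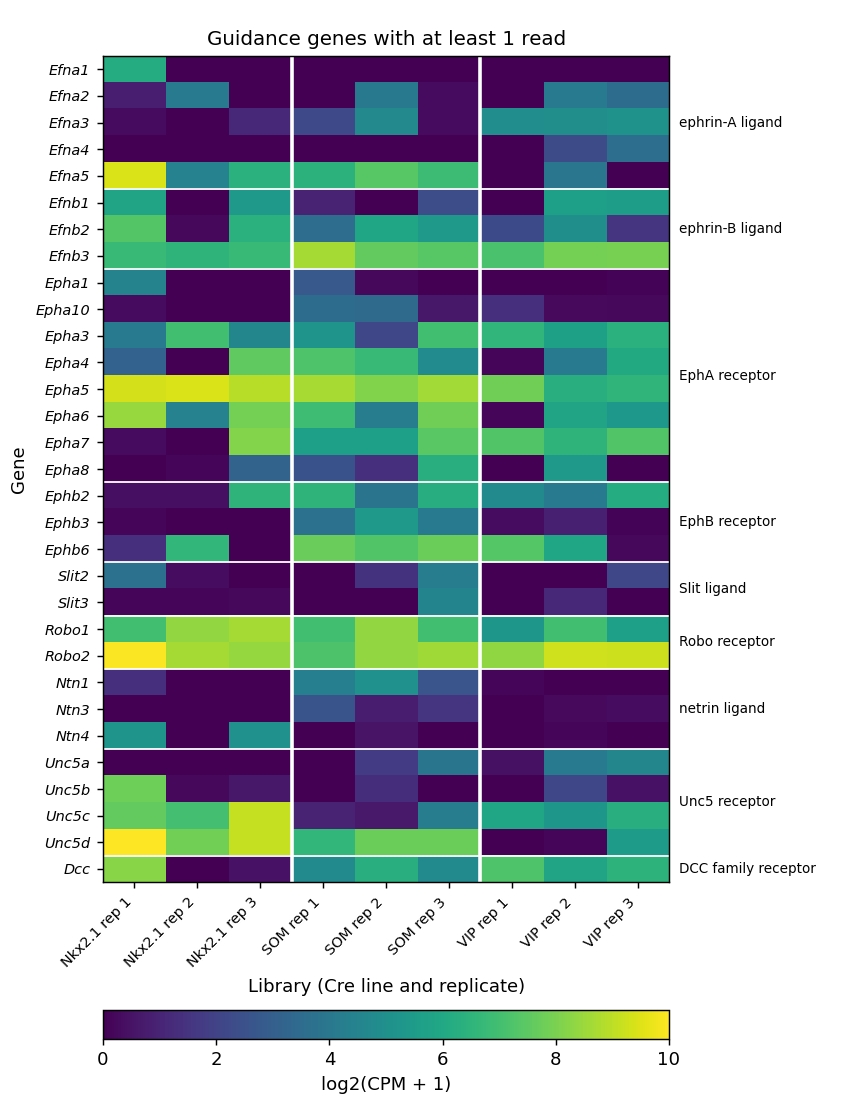
Levels of the 31 guidance genes with at least 1 read. Rows are genes grouped by role, columns are the 9 libraries, and colour gives log2(CPM + 1). Epha5, Robo1, Robo2 and Efnb3 are lit in every column, while many other rows switch between dark and bright within a line.

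For 8 of the tested genes, every library of 1 line lay above or below all libraries of both other lines. Nkx2.1 libraries were all above for Epha5, Unc5c and Unc5d (3 of 25, against 3.31% of all genes tested) and all below for Efnb3 (5.96% of all genes). SOM libraries were all above for Ephb3 and Ntn1 (3.45%) and all below for Unc5c (0.792%). VIP libraries were all above for Efna3 (4.71%) and all below for Efna5, Epha5 and Unc5d (2.58%). RefSeq sequence on GRCm38.p6, the build of the mm10 label, was matched by symbol for 34 of the 39 genes and for 5 of these 8. The sequence upstream of the start is shown for the 4 whose window lies outside the transcript in GENCODE M21, since these are the ephrin pair and the ligand and receptor that set a line apart. A second RefSeq start of Efna3 and the start of Unc5c lie within the transcribed part and are not shown. Each is written 5′ to 3′ on the strand of the gene, and capitals mark the homeodomain core TAATTA or the E-box CAGCTG. Both motifs read the same on both strands and do not overlap here.
Epha5, minus strand, chr5:84417383-84417632: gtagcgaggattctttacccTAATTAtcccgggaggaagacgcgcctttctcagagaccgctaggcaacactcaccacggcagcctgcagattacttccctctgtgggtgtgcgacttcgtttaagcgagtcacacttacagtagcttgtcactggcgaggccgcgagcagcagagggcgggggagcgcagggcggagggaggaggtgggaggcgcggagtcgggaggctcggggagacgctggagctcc
Efna5, minus strand, chr17:62881318-62881567: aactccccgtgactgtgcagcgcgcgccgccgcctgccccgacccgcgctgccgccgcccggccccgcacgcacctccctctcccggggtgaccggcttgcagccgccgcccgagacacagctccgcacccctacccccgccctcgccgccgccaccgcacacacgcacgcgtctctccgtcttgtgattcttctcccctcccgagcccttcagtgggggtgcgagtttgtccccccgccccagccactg
Efna3, minus strand, chr3:89322966-89323189: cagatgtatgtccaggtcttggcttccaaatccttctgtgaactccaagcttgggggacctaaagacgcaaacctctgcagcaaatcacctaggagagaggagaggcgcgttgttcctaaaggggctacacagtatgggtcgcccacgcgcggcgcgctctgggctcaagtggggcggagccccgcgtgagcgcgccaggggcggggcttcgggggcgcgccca
Ephb3, plus strand, chr16:21204545-21204754: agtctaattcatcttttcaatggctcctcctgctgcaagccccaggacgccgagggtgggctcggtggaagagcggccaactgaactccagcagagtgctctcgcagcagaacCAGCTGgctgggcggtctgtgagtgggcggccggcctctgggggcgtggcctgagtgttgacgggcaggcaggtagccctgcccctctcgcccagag
The Epha5 window of 250 bases held 1 TAATTA, which 4.84% of the 32851 windows of that length in the RefSeq table hold. The Ephb3 window of 210 bases held 1 CAGCTG, which 10.8% of windows of 210 bases hold. The window of Efna5 and the one shown for Efna3 held neither. GC content was 62.4% for Epha5, 74.8% for Efna5, 63.4% for Efna3 and 65.2% for Ephb3. A match of letters is a description and no evidence of binding.

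Among the ephrin-A ligands, Efna5 had the highest mean per exon length in Nkx2.1 and SOM libraries and was at 0 in 2 of 3 VIP libraries. Efna5 (chromosome 17, 62604184 to 62881317, minus strand, GRCm38), whose product binds EphA receptors and can also bind EphB2, stood at 690.5, 20.7 and 82.5 CPM in Nkx2.1 replicates 1 to 3. Its SOM values were 85.6, 169 and 115 CPM, and its VIP values 0, 14.4 and 0. Every Nkx2.1 and SOM library lay above every VIP library. The difference of Nkx2.1 from VIP was log2 5.78 ± 2.28 (SE; edgeR adjusted p = 0.279). It was log2 3.45 without Nkx2.1 replicate 1, the library with high astrocyte markers. Without VIP replicate 2, which held all VIP reads of the gene, the fit gave 14.38, which is no measured size as the VIP count was then 0. The sum of oligodendrocyte lineage markers, though not each member, was also higher in every Nkx2.1 library than in any VIP library. The part of either marker list in the level of Efna5 was not tested. SOM against VIP gave 123.2 ± 42.2 against 4.79 ± 8.29 CPM (mean ± SD, n = 3; edgeR adjusted p = 0.743).

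Efna3 (chromosome 3, 89313899 to 89322965, minus strand), a ligand of the same class, had the opposite order. It stood at 28.9, 29.97 and 34.7 CPM for VIP, close together. In Nkx2.1 libraries it had 2, 0 and 15 reads (0.229, 0 and 1.25 CPM), and for SOM it stood at 3.64, 25.2 and 0.23 CPM. VIP libraries were thus above all 6 others, although SOM replicate 2 came close. Nkx2.1 against VIP gave log2 -5.94 ± 2.46 (SE; edgeR adjusted p = 0.294), and -7.97 without Nkx2.1 replicate 3.

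The remaining ephrin-A genes came from few libraries. Efna1 had 633 reads in Nkx2.1 replicate 1 and 0 in the other 8 libraries. Efna4 had 38 and 135 reads in VIP replicates 2 and 3 and 0 in the other 7. Efna1, Efna3 and Efna4 are neighbours on the minus strand of chromosome 3, yet Efna1 and Efna4 shared no library. Efna2 reached 104 to 198 reads in 4 libraries spread over the 3 lines and at most 7 in the other 5.

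Efnb3 was the ephrin gene with 91.0 CPM or more in every library. Its product is a transmembrane ligand of EphB receptors and of EphA4, and the gene lies on chromosome 11 (69554092 to 69560205, minus strand). It stood at 107, 91.0 and 108 CPM for Nkx2.1, 398, 193 and 169 for SOM and 141, 239 and 245 for VIP. Nkx2.1 libraries were close together and all below the others. The means were 102 ± 9.75, 253 ± 126 and 208 ± 58.3 CPM (SD, n = 3), a ratio of 2.48 for SOM over Nkx2.1 (log2 of Nkx2.1 against SOM -1.31 ± 0.56 SE, edgeR adjusted p = 0.424), and without SOM replicate 1 the log2 was -0.82. Against VIP the log2 was -1.03 ± 0.56 (edgeR adjusted p = 0.433). Efnb1 and Efnb2, the other transmembrane ephrins, varied far more within a line. Efnb1 held 0 to 56.5 CPM for Nkx2.1, 0 to 4.15 for SOM and 0 to 48.9 for VIP. Efnb2 ranged from 0.171 to 158 CPM, from 11.02 to 58.8 and from 1.82 to 30.7 in the same order of lines. Per length, Efnb3 made up 46.1%, 99.9% and 58.3% of ephrin-B in Nkx2.1 libraries and 80.1% to 98.8% in the other 6.

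**Figure D2:**
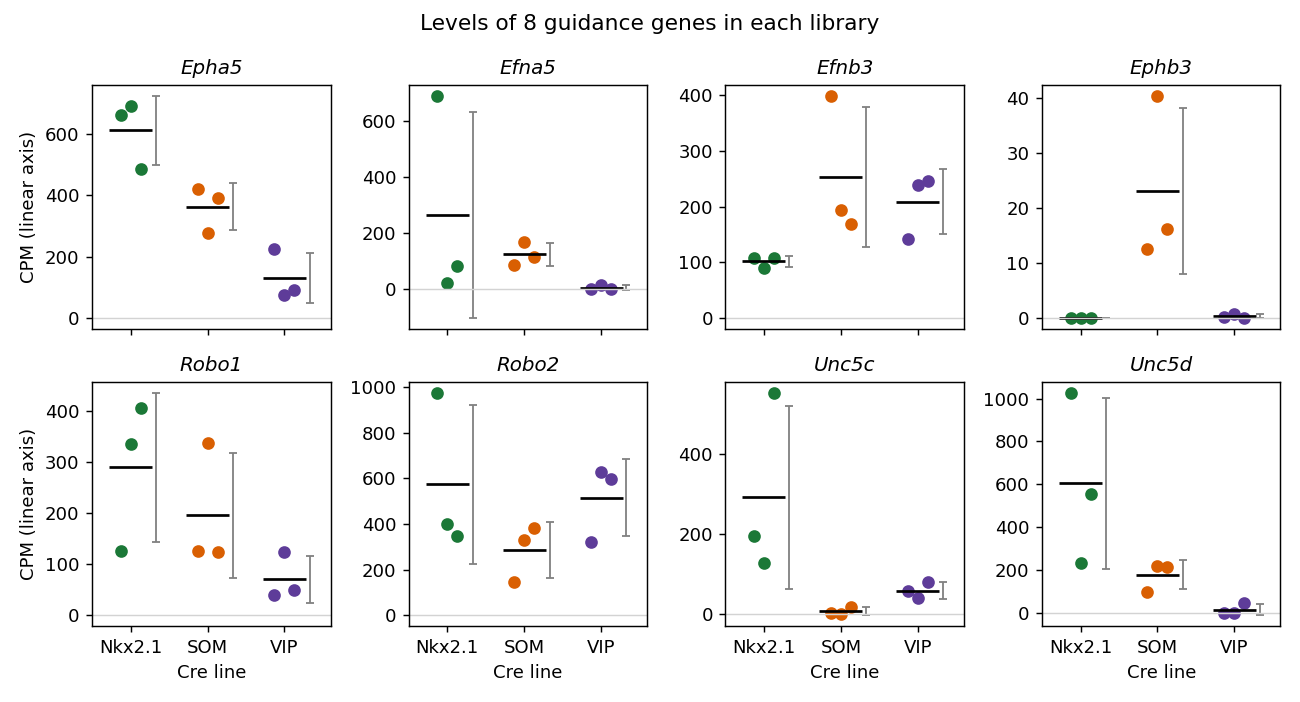
CPM (linear vertical axis) of 8 guidance genes by Cre line. Points are libraries, black lines are means of 3 libraries and grey bars are ± 1 SD, drawn to the right of each group. Epha5 steps down from Nkx2.1 (mean 611 CPM) through SOM (363) to VIP (132), while Unc5c is lowest in SOM (6.396).

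Among receptors, the libraries of the 3 lines did not overlap for Epha5. Epha5 (chromosome 5, 84054761 to 84417382, minus strand) encodes a receptor for ephrin-A ligands, ephrin-A5 among them. Its values were 659.7, 689 and 484 CPM for Nkx2.1, 419.5, 277 and 391 for SOM and 226, 76.0 and 92.8 for VIP. The order was Nkx2.1, SOM, VIP, without overlap at any step. What share of all genes keeps the 3 lines apart in this way was not counted. The mean of Nkx2.1 libraries was 4.64 times that of VIP libraries (611 ± 111 against 132 ± 82.1 CPM), with log2 2.22 ± 0.50 (SE; edgeR adjusted p = 0.13, DESeq2 adjusted p = 0.00142). Without any 1 library that log2 stayed between 1.99 and 2.91. Summed oligodendrocyte lineage markers (261 to 304, 101 to 266 and 1.73 to 112 CPM), though not each member, had means in the same order of lines. Their part in the level of Epha5 was not tested. SOM against VIP had log2 1.46 ± 0.49 (SE; edgeR adjusted p = 0.475), or 2.12 without VIP replicate 1, and Nkx2.1 and SOM means differed by a ratio of 1.68 (log2 0.75, edgeR adjusted p = 0.664).

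Epha5 and its ligand gene Efna5 were both lowest in the VIP libraries. Their orders within a line differed: Nkx2.1 replicate 2 had the highest Epha5 of the 9 libraries (689 CPM) and the lowest Efna5 of the 3 Nkx2.1 libraries (20.7 CPM). In SOM replicate 2, Epha5 was the lowest of its line and Efna5 the highest.

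Epha6 (chromosome 16, 59653483 to 60605531, minus strand), another EphA receptor gene, stood at 348, 20.7 and 243 CPM for Nkx2.1, 117, 17.7 and 227 for SOM and 0.124, 55.7 and 39.2 for VIP. The lines overlapped. A transcript on the other strand, 4930547E14Rik, lies across it with 3833 reads, and the strand setting of the counting is not given in the sources used here. Epha7, a receptor known for repulsion and for trimming dendrites, had 2, 0 and 3367 reads for Nkx2.1 (0.229, 0 and 281 CPM). It was steadier in SOM libraries (49.2, 49.4 and 175 CPM) and in VIP libraries (157, 88.9 and 156 CPM). Epha3 ranged from 3.43 to 125 CPM and had 10 or more reads in every library. Epha4, the receptor that binds both ephrin classes, stood at 0 to 188 CPM for Nkx2.1, 27.5 to 152 for SOM and 0.124 to 67.2 for VIP. Epha8 passed 10 CPM only in SOM replicate 3 (78.2) and VIP replicate 2 (40.2). Epha10 had 99, 67 and 5 reads for SOM, 2, 0 and 0 for Nkx2.1 and 13, 2 and 2 for VIP. SOM replicate 3 thus lay below VIP replicate 1. The ratio of pooled reads of SOM over Nkx2.1 was 112, with a 95% counting interval of 30.6 to 934. Epha1 had 186 reads in Nkx2.1 replicate 1, 55 in SOM replicate 1 and 1 each in 2 others.

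The EphB receptor genes with reads, Ephb2, Ephb3 and Ephb6, summed highest in SOM libraries. Ephb3 (chromosome 16, 21204755 to 21223305, plus strand), whose product binds ephrin-B ligands, had 118, 270 and 140 reads for SOM (12.6, 40.3 and 16.1 CPM). It had 1, 0 and 0 reads for Nkx2.1 and 2, 8 and 1 for VIP. All SOM libraries were above all others. The ratio of pooled reads of SOM over Nkx2.1 was 693, with a counting interval of 124 to 27411, and edgeR gave an adjusted p = 0.309 for it and 0.54 for SOM against VIP (log2 5.85 ± 2.14 SE, and 7.05 without VIP replicate 2). DESeq2 gave adjusted p = 0.000188 and 0.0196. These intervals and floors cover counting error alone, as PCR copies of a molecule cannot be recognised.

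Ephb6, an Eph receptor without kinase activity, stood at 207, 155 and 214 CPM for SOM. In Nkx2.1 libraries it was at 1.60, 98.5 and 0 CPM, all below SOM, and in VIP libraries at 163, 58.3 and 0.165. Nkx2.1 against SOM gave log2 -2.52 ± 2.21 (SE; edgeR adjusted p = 0.822). Ephb2, a receptor of excitatory synapses and axon paths, ranged from 0.341 to 88.9 CPM for Nkx2.1, 13.6 to 90.6 for SOM and 15.8 to 72.9 for VIP. Summed over the 3 of 5 EphB genes with reads, without Ephb1, which lies in a stretch without counts, SOM libraries stood at 310, 209 and 305 CPM, above Nkx2.1 (2.06, 98.8 and 88.9) and VIP libraries (190, 74.9 and 73.1). Summed EphA genes had another order of means, 1039 ± 196 CPM for Nkx2.1, 762 ± 279 for SOM and 416 ± 79.1 for VIP (SD, n = 3). Here SOM libraries overlapped both other lines. SOM replicate 2 (468 CPM) lay below VIP replicate 1 (481), and SOM replicate 3 (1024) above Nkx2.1 replicate 2 (835).

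Robo1 and Robo2, receptors for Slits, had reads in every library, while Slit2 and Slit3 were low in most. Robo2 (chromosome 16, 73891839 to 74411825, minus strand) stood at 976, 402 and 346.5 CPM for Nkx2.1, 147, 329 and 382 for SOM and 322, 629 and 598 for VIP. These ranges overlapped in every comparison. Robo1 (chromosome 16, 72308306 to 73046095, plus strand), which with Robo2 is the main Slit receptor of the brain, stood at 126, 336 and 407 CPM for Nkx2.1, 126, 337 and 124 for SOM and 38.7, 124 and 48.6 for VIP. The lowest Nkx2.1 library was just above the highest VIP library. The mean ratio of Nkx2.1 over VIP was 4.12 (log2 2.04 ± 0.75 SE, edgeR adjusted p = 0.248), and the log2 was 2.77 without VIP replicate 2.

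Robo1 and Robo2 were set against each other within each library, per length, which does not depend on scaling between libraries. Robo1 made up 11.7%, 46.2% and 54.7% of the pair for Nkx2.1, 46.9%, 51.3% and 24.9% for SOM and 10.996%, 16.8% and 7.71% for VIP. VIP libraries all lay below the SOM libraries, and Nkx2.1 replicate 1 lay among the VIP values.

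Of the Slit genes, Slit2 had 151 reads in SOM replicate 3 (17.4 CPM), 111 in Nkx2.1 replicate 1 and 0 in 4 libraries. Slit3 had 188 reads in SOM replicate 3 and 16 in the other 8 libraries together. Slit1 had none, but it lies in a stretch without counts described below.

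In the Unc5 family, the repulsive netrin receptors, libraries of the 3 lines did not overlap for Unc5c or for Unc5d, in different orders. The share of all genes with the 3 lines apart was not counted. Unc5d (chromosome 8, 28646717 to 29219636, minus strand) stood at 1027, 232 and 556.5 CPM for Nkx2.1 and 98.8, 218 and 215 for SOM. In VIP libraries it had 0, 1 and 544 reads (0, 0.104 and 44.9 CPM). The 3 lines did not overlap, in the order Nkx2.1, SOM, VIP, although Nkx2.1 replicate 2 was close to the highest SOM values. Nkx2.1 against SOM had log2 1.77 ± 1.68 (SE, edgeR adjusted p = 0.852) and SOM against VIP log2 3.56 ± 1.81 (edgeR adjusted p = 0.846). Nkx2.1 against VIP had log2 5.33 ± 1.96 (SE, edgeR adjusted p = 0.25, DESeq2 adjusted p = 0.0142). A single library decided this: without VIP replicate 3, edgeR called Unc5d in both VIP comparisons, with log2 13.11 and adjusted p = 0.00797 for Nkx2.1 and log2 11.33 and adjusted p = 0.0209 for SOM. Those log2 values rest on 0 and 1 reads in the VIP libraries left and are no measured sizes. The part of the oligodendrocyte lineage markers, whose sums but not all members had line means in the same order, was not tested. Unc5d was the only guidance gene called by edgeR under any setting run.

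Unc5c (chromosome 3, 141465216 to 141834924, plus strand) had another order. It stood at 195, 127 and 554 CPM for Nkx2.1, 57.2, 38.5 and 79.3 for VIP and 0.962, 0.597 and 17.6 for SOM. Again no line overlapped the next, with Nkx2.1 highest and SOM lowest. The mean of Nkx2.1 was 45.7 times that of SOM (292 ± 229 against 6.396 ± 9.73 CPM; log2 5.51 ± 1.44 SE, edgeR adjusted p = 0.309, DESeq2 adjusted p = 0.000145). VIP libraries exceeded SOM libraries by a ratio of 9.12 (log2 of SOM against VIP -3.19 ± 1.30, edgeR adjusted p = 0.634). Nkx2.1 against VIP had log2 2.32 ± 1.25 (SE, edgeR adjusted p = 0.429). Without SOM replicate 3, the log2 of Nkx2.1 against SOM was 8.52 and that of SOM against VIP -6.20.

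Within a library and per length, Unc5d made up 91.6%, 79.1% and 67.6% of Unc5c and Unc5d together in the Nkx2.1 libraries. The SOM libraries held 99.5%, 99.9% and 96.2%, and the VIP libraries 0%, 0.558% and 54.0%. These shares did not overlap between lines and need no scaling between libraries. With 3 libraries a line they are given as a description, chosen after the values were seen.

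**Figure D3:**
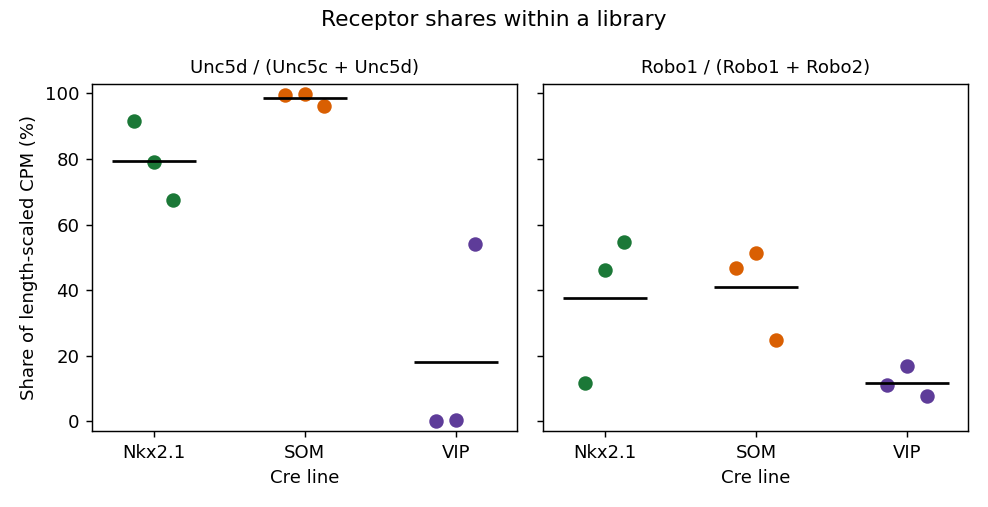
Share (%) of Unc5d in Unc5c plus Unc5d (left) and of Robo1 in Robo1 plus Robo2 (right), from CPM divided by exon length, by Cre line. Points are libraries and black lines are means of 3. SOM libraries hold 96.2% to 99.9% Unc5d and VIP libraries 0% to 54.0%.

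Unc5a and Unc5b had reads in fewer libraries. Unc5a had 0 reads in all Nkx2.1 libraries, 0, 16 and 119 for SOM and 3, 160 and 283 for VIP. Against the floor of 3 reads over the 3 Nkx2.1 libraries together, VIP libraries were at least 162-fold higher (edgeR adjusted p = 0.233) and SOM libraries at least 59.0-fold higher (edgeR adjusted p = 0.367). These are bounds on pooled reads and do not hold for each library. VIP replicate 1 had only 3 reads, and SOM replicate 1 was at 0 like the Nkx2.1 libraries. Without SOM replicate 3 the log2 of Nkx2.1 against SOM went from -8.70 to -6.55. With 0 reads for Nkx2.1, neither log2 is a measured size. Hk3, on the other strand, lies across Unc5a with 61 reads. In Nkx2.1 replicate 1, Unc5b had 1931 reads (221 CPM), with 57 in the other 8 libraries together. Efna1 and Epha1 also had most of their reads in Nkx2.1 replicate 1, the library with 3590 CPM of astrocyte and radial glia markers, as Dcc did within the Nkx2.1 line. The part of those cells in the reads of these 4 genes was not tested.

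Dcc, the attractive netrin receptor, stood at 298, 0 and 0.417 CPM for Nkx2.1, 26.5, 75.3 and 26.8 for SOM and 153, 56.0 and 88.5 for VIP. It was thus at 26.5 CPM or more in all SOM and VIP libraries and in 1 Nkx2.1 library. The means of Nkx2.1 and VIP were nearly equal, 99.4 ± 172 and 99.1 ± 49.2 CPM (SD, n = 3), but the Nkx2.1 mean came from replicate 1, the library with high astrocyte markers.

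Netrin genes were low. Ntn1 (chromosome 11, 68209364 to 68400823, minus strand), the main secreted netrin, had 175, 219 and 46 reads for SOM (18.7, 32.7 and 5.30 CPM). It had 14, 0 and 0 reads for Nkx2.1 and 1, 0 and 0 for VIP. All SOM libraries lay above all others. The ratio of pooled reads of SOM over VIP was 530.2, with a counting interval of 94.7 to 20989 (edgeR adjusted p = 0.517). Ntn4, a netrin of basement membranes, had 307, 0 and 391 reads for Nkx2.1, 0, 3 and 0 for SOM and 0, 1 and 0 for VIP. Its pooled ratio was 177 over SOM (60.4 to 862) and 641 over VIP (115 to 25359), and it did not pass the filter on low counts. Ntn3 had 69 reads for SOM, 5 for VIP and 0 for Nkx2.1, and it shares its span with Tbc1d24 on the same strand.

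**Figure D4:**
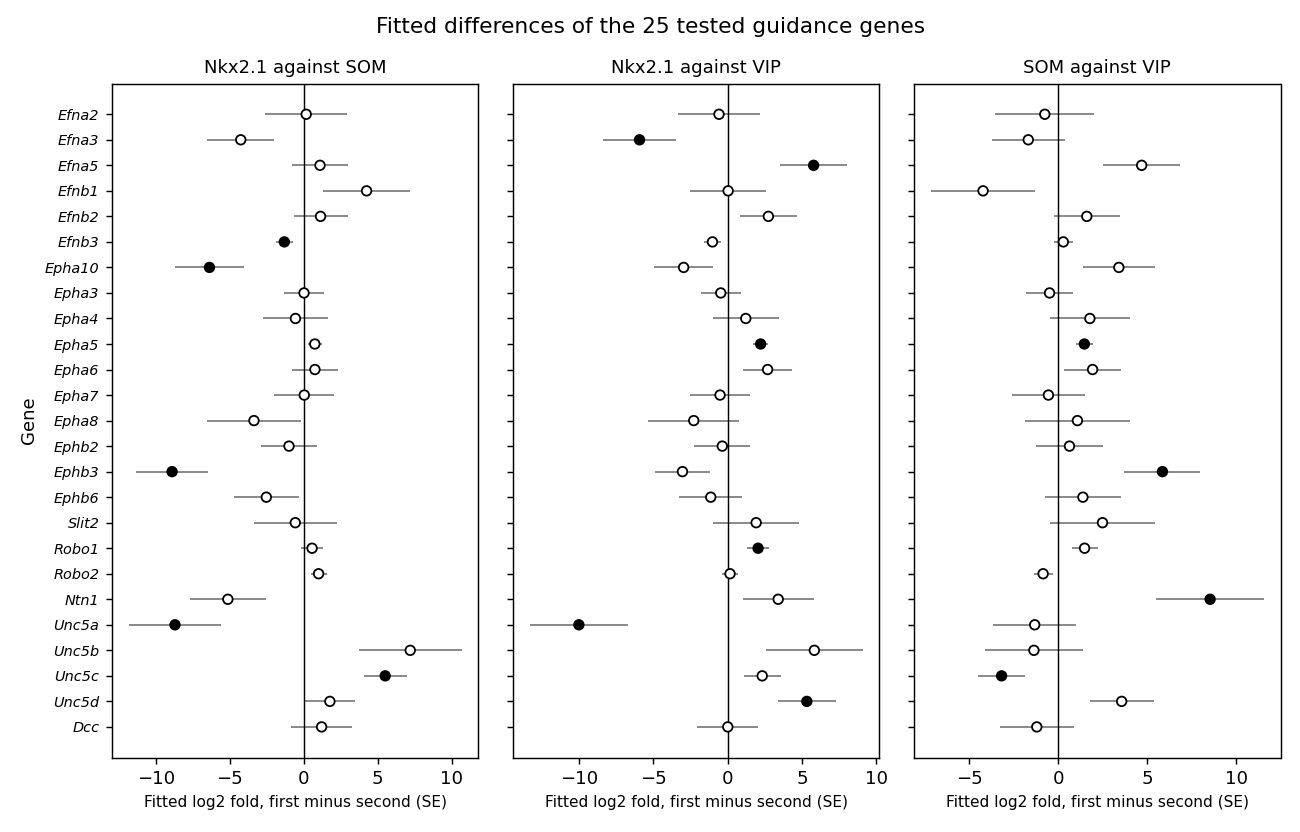
Fitted log2 fold (first line minus second) with SE for the 25 tested guidance genes in the 3 comparisons. Filled points have an unadjusted edgeR p under 0.05 (5, 6 and 4 genes), and none passes after adjustment. Efnb3, Epha5, Robo1 and Robo2 have short bars, while Unc5a, Unc5b and Ntn1 have long ones.

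Over the 25 tested genes, which leave out the 14 guidance genes with few or no reads, 14 had a fitted log2 above 0 in Nkx2.1 against SOM, 14 in Nkx2.1 against VIP and 15 in SOM against VIP. Of all genes tested, 49.8%, 50.2% and 49.9% did. Their median log2 was 0.04, 0.03 and 1.07, beside -0.0073, 0.0028 and -0.0037 for all genes. Groups did not overlap for 8 guidance genes in Nkx2.1 against SOM (19.9% of all genes), 8 in Nkx2.1 against VIP (20.1%) and 7 in SOM against VIP (19.9%). The comparisons share libraries pairwise, so these counts are not independent of each other.

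Per length, with CPM divided by kilobases of the union of GENCODE M21 exons, the order of abundance differed between lines. In Nkx2.1 libraries the highest means were 65.6 CPM per kb for Unc5d, 65.6 for Efna5, 38.6 for Epha6, 36.5 for Epha5 and 33.9 for Robo2. The Efna5 mean rested on 1 library. In SOM libraries Efnb3 led with 79.6 CPM per kb, before Ephb6 (50.9), Efna5 (30.5), Epha6 (22.8) and Epha5 (21.7). In VIP libraries Efnb3 also led with 65.5 CPM per kb, followed by Robo2 (30.4), Ephb6 (19.5), Epha7 (13.6) and Efna3 (12.8). The SDs of these genes between libraries are large, and neighbours in each order were not tested against each other.

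Much of the spread lay within lines. Guidance genes with 10 or more reads numbered 20, 11 and 17 for Nkx2.1, 21, 23 and 23 for SOM and 13, 22 and 19 for VIP. The libraries also differed over all genes. Those with at least 1 read numbered 10576, 8180 and 9484 for Nkx2.1, 10923, 11081 and 11490 for SOM and 9672, 10924 and 10927 for VIP. Nkx2.1 replicate 2 was lowest by both counts. Only 5 genes had 10 reads in all 9 libraries: Efnb3, Epha3, Epha5, Robo1 and Robo2. A gene with 100 or more reads in 1 library and 3 or fewer in another of the same line was common. In Nkx2.1 libraries this held for 13 of the 22 guidance genes that reached 100 reads (59.1%, against 41.6% of all genes that did). In SOM libraries it held for 5 of 23 (21.7%, against 18.9%) and in VIP libraries for 10 of 21 (47.6%, against 28.3%).

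Some genes without reads cannot be read as absent. Of the 8 with 0 reads in all libraries, Ephb1 and Neo1, a receptor of netrins and repulsive guidance molecules, lie on the minus strand of chromosome 9, as does Robo3, the Robo receptor of commissural axons. There a run of 461 protein-coding genes on that strand, from 21294275 to 124476898, had no read in any library, while 69.0% of the 516 genes on the other strand in that stretch had reads. Slit1, on the minus strand of chromosome 19, lies in such a run of 121 genes (27761721 to 60581025), with reads in 76.3% of the 139 genes on the other strand. For these 4 genes a count of 0 may be a gap of the counting.

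The other 4 genes without reads had neighbours with reads on their own strand. Of the 20 nearest protein-coding genes on the same strand, 6 were without a read around Epha2, 4 around Ephb4, 5 around Ntn5 and 11 around Robo4, against 34.6% of protein-coding genes in the tables.

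Further genes of these pathways were read in 4 lists. None of the 13 tested genes of ephrin signalling, 16 of Slit-Robo signalling, 11 of netrin and neogenin signalling and 4 of netrin-G and its ligands was called by edgeR in any comparison. At an unadjusted edgeR p under 0.05, 0, 0, 1 and 0 of them differed in Nkx2.1 against SOM, in the order of the lists. In Nkx2.1 against VIP there were 0, 1, 2 and 1, and in SOM against VIP 0, 0, 1 and 0. Of all genes tested, 11.3%, 15.2% and 6.99% did in the 3 comparisons, so these counts do not stand out. The gene of the netrin list in Nkx2.1 against SOM was Dscam, and in SOM against VIP Dscaml1. DESeq2 called 3 genes, all in Nkx2.1 against VIP: Srgap2 and Dscaml1 higher and Lrrc4b lower, beside 12.7% of all genes there. The most abundant genes of the lists, by mean CPM over all libraries, are named here. Grip1, a scaffold of ephrin-B ligands, stood at 280 ± 101, 239 ± 151 and 148 ± 74.9 CPM for Nkx2.1, SOM and VIP (SD, n = 3), and the kinase gene Fyn at 121 ± 70.0, 165 ± 33.4 and 165 ± 3.73. Srgap2, a GTPase-activating protein that binds Robo receptors, stood at 790 ± 408, 502 ± 176 and 214 ± 124 CPM, and the small GTPase gene Cdc42 at 749 ± 352, 906 ± 13.8 and 820 ± 66.1. Dscaml1, an adhesion gene of the DSCAM family, stood at 500.5 ± 131, 296 ± 61.1 and 120 ± 66.4 CPM, and Trio, an exchange factor downstream of DCC, at 239 ± 177, 168 ± 53.4 and 80.0 ± 32.3. Srgap2 and Dscaml1 thus had means in the same order of lines as Epha5 and Unc5d, with edgeR adjusted p = 0.205 and 0.167 in Nkx2.1 against VIP. Lrrc4c and Lrrc4b, of the family of netrin-G ligands, had the reverse order, with Lrrc4c at 9.05 ± 15.4, 25.8 ± 18.8 and 138 ± 33.5 CPM and Lrrc4b at 7.74 ± 3.09, 30.4 ± 17.7 and 92.2 ± 42.6 (edgeR adjusted p = 0.416 and 0.234 in Nkx2.1 against VIP).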

How the data were processed

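Per the labels, libraries for Illumina sequencing were made from total RNA of picked fluorescent cells. The authors deposited a table of unnormalised counts by gene symbol for each library. The submitters' processing notes list TopHat2 2.0.9, DESeq2 and mm10 without saying what each was for. The counting program and its strand setting: not given in the sources used here. Entries that name no gene held 83.6% to 85.2% of each table's total and were left out.

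The 39 genes were selected by symbol, and all 9 libraries entered 1 fit on all genes in edgeR 4.0.16 (R 4.3.3), with TMM scaling, filterByExpr (minimum count 10), the quasi-likelihood test by group and Benjamini-Hochberg adjustment over 10728 genes at 0.05. SE was taken as the absolute log2 change divided by the root of F. The script was tested on simulated data. Positions and exon lengths came from GENCODE M21 (GRCm38). The alternatives were DESeq2 1.42.0 on the same genes, RLE size factors, no filter, a replicate block, the libraries of 2 groups only and leaving out each library. Values by library are given for genes with a call, with a mean of at least 100 CPM in a line, or apart from both other lines with 10 CPM or more in a library. Dcc and genes whose reads came from few libraries were added after their values were seen. The genes and lists were chosen with earlier results of these data known.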

Additional observations from a re-analysis of the deposited data

How the results depend on the processing

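Guidance genes called numbered 0 in every comparison under RLE size factors, without a filter, with the replicate block and with the libraries of 2 groups only. Under DESeq2 they numbered 2 in Nkx2.1 against SOM, 5 in Nkx2.1 against VIP and 1 in SOM against VIP. Leaving out 1 library gave 0 in all 9 fits of Nkx2.1 against SOM and 0 to 1 in the other comparisons, the 1 being Unc5d without VIP replicate 3. For the 15 differences with an unadjusted p under 0.05, none of the 207 refits turned direction, 9 passed the threshold (8 under DESeq2) and 198 stayed on the same side of it. The 15 were chosen from these same data and the refits reuse most or all of the same libraries, so a kept direction is no independent support.

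Calls over all genes moved more. Higher and lower genes numbered 7 and 3 in Nkx2.1 against SOM, 19 and 14 in Nkx2.1 against VIP and 6 and 2 in SOM against VIP. Under DESeq2 they numbered 180 and 588, 462 and 800, and 246 and 136. Same-numbered libraries of different lines did not deviate together (correlations -0.0412 to 0.0671, 0 of 9 over 0.1). The labels do not say that a number marks a shared animal or day, and low correlations cannot exclude one. With the replicate block the counts were 3 and 1, 8 and 3, and 3 and 1. With the libraries of 2 groups only they were 4 and 1 in Nkx2.1 against SOM, 10 and 10 in Nkx2.1 against VIP, and 14 and 18 in SOM against VIP. Without a filter SOM against VIP had 14 and 7. Leaving out 1 library gave 0 to 8 higher and 0 to 29 lower genes in Nkx2.1 against SOM, 9 to 18 and 3 to 36 in Nkx2.1 against VIP, and 3 to 9 and 0 to 8 in SOM against VIP. The cause was not tested. A common biological coefficient of variation of 1.40 and 3 libraries a line limit what the test can call.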

Other observations

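Beyond the guidance genes themselves, 3 genes of the pathway lists had 0 reads in all 9 libraries: Nck1, an adaptor of Eph receptors, Dag1, which encodes the Slit-binding dystroglycan, and Ablim1, an actin-binding protein of netrin signalling. All 3 lie in the runs of minus-strand genes without reads on chromosomes 9 and 19 that also hold Ephb1, Neo1, Robo3 and Slit1. Ntng2, which encodes a netrin-G, had 74 reads in all, at 2.82 ± 4.89 CPM in Nkx2.1 libraries (SD, n = 3) and at 0 reads in SOM and VIP libraries. Dock1, an exchange factor of netrin signalling, stood at 78.1 ± 135 CPM in Nkx2.1 libraries, 1.22 ± 0.45 in SOM libraries and 2.14 ± 2.70 in VIP libraries, with no call (edgeR adjusted p = 0.476 and 0.424). For Ntng2 and Dock1 the SD in Nkx2.1 libraries was so far above the mean that the mean rested almost wholly on a single library. Dscam, a netrin receptor gene related to Dscaml1, stood at 12.3 ± 19.3 CPM in Nkx2.1 libraries, 190.5 ± 70.1 in SOM libraries and 178 ± 44.3 in VIP libraries (edgeR adjusted p = 0.418 and 0.31), an order of means opposite to that of Dscaml1 between Nkx2.1 and VIP. Dock1 and Dscam were named after their values were seen.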
